A study of Mus musculus with 4 samples.

Results

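Srf and 7 immediate early genes were followed in mouse embryonic stem cells (mESC) by droplet single-cell RNA sequencing. The 8 genes (Srf, Egr1, Fos, Fosb, Jun, Junb, Ier2 and Atf3) were chosen by name among the 32285 genes of the deposited matrix, and all 8 were found. The labels describe 2 WT samples of E14tg2a.4, a male mESC line, and 2 Srrm2 hKO samples, a heterozygous gene-trap line (CG0630) that is 1 clone made in the same background and carries a truncation in Srrm2. Both lines were kept with LIF on gelatin and moved to serum-free medium with LIF before collection, for 24 h or 72 h by the labels, which do not say which length went with which sample; the study's methods for the single-cell cultures give neither length but a single one between them, under the usual culture conditions. Each cell barcode carries a library number from 1 to 4 that no label or file ties to a sample, so no library was assigned to a genotype and Srrm2 hKO was not compared with WT. A library is treated as 1 culture, without replicate error, and intervals printed beside levels and shares are exact 95% intervals that cover counting error only.

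Immediate early genes are transcribed within minutes of a stimulus such as a growth factor, from factors that are already present in the cell, and their transcripts decay fast. Serum response factor, encoded by Srf, binds a short AT-rich element called the CArG box and works with ternary complex factors, which carry the ERK signal to genes such as Egr1 and Fos, or with the actin-sensing MRTF cofactors, which carry the state of the cytoskeleton to contractile genes. Egr1 encodes a zinc finger factor, Fos, Fosb, Jun and Junb encode subunits of the AP-1 factor, Ier2 encodes a small nuclear protein, and Atf3 encodes a factor of the ATF/CREB family that is induced by stress and that pairs with Jun proteins.

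On GRCm38 the genes other than Egr1 lie at chr17:46548329-46556175 (Srf, minus strand), chr12:85473890-85477273 (Fos, plus), chr7:19302696-19310051 (Fosb, minus), chr4:95049034-95052222 (Jun, minus), chr8:84974484-84978718 (Junb, minus), chr8:84661331-84662852 (Ier2, minus) and chr1:191170296-191218039 (Atf3, minus). All 8 are protein coding in the GENCODE annotation. RefSeq windows of 250 bases before the start were available for 6 of the 8 genes, without Egr1 and Ier2, and were searched on both strands for the CArG box, the cyclic AMP response element TGACGTCA and the AP-1 site TGACTCA. Only the Srf window held any of these, with 2 CArG boxes whose first bases lie 82 and 62 bases before the RefSeq start. Bases further from the start, and the genes without a window, were not searched. Whether Fos or Egr1 has a CArG box there is thus not answered. Of 32851 windows of this length, 1.47% held a CArG box, 1.55% a cyclic AMP response element and 4.46% an AP-1 site. The looser strings TGACGT (6.47% of windows, full response elements included) and TGANNTCA (11.9%, likewise) were added after the sequences were seen. TGACGT was found in the Fos window, with its first base 66 bases before the start, and in the Atf3 window. The Atf3 window, chr1:191183334-191183583, lies inside the gene span given above, before a RefSeq start within it. Bases before the outer end of that span were not searched. TGANNTCA was found in the Jun window, 45 bases before the start. The windows of Fosb and Junb held none of the strings. The stretches below are shown because Srf, Fos and Jun differ in which of these strings their windows held. They cover chr17:46556176-46556325, chr12:85473740-85473889 and chr4:95052223-95052372, and capitals mark the matches.
Srf: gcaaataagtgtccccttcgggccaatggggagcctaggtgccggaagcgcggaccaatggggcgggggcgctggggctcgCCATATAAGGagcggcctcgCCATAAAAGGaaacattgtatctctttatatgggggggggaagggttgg
Fos: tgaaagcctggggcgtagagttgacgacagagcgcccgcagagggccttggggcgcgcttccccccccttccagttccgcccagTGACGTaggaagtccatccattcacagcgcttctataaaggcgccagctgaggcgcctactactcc
Jun: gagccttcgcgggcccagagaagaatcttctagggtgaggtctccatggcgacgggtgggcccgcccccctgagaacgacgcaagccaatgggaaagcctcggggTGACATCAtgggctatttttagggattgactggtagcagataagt

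The 31989 kept cells, 7464 to 8514 per library, carried 166839268 to 200180473 unique molecular identifiers (UMIs) per library, with a median of 18378 to 21897.5 UMIs per cell. Levels are given as UMIs of a gene per 1000000 UMIs of the cells summed (CPM). Median mitochondrial shares ran from 3.51% in library 4 to 5.40% in library 1. Of the barcode sequences of kept cells, 105 occurred in more than 1 library. Free RNA in the droplets can add UMIs to cells that do not express a gene, and no cells known to lack these genes were at hand, so its part in the shares of cells was not tested.

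From library 1 to library 4 Srf was at 6.78 CPM (6.39 to 7.19), 17.0 CPM (16.5 to 17.6), 11.2 CPM (10.8 to 11.8) and 19.4 CPM (18.7 to 20.04), a 2.86-fold range (2.67 to 3.06) that rests on 1131 to 3409 counts per library. No 2 of these intervals overlapped, and the order was library 1, 3, 2, 4. Egr1 followed the same order, at 5.35 CPM in library 1, 6.94 in library 3, 12.4 in library 2 and 18.4 in library 4, a 3.43-fold range (3.18 to 3.70). For both genes libraries 2 and 4 were therefore above libraries 1 and 3.

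Jun, Junb and Fos followed other orders. Jun reached 3.18, 5.92, 17.0 and 20.6 CPM from library 1 to library 4, which spans 6.48-fold (5.91 to 7.11), with libraries 3 and 4 above the others. Its range was 4.06-fold when only cells with at most 5% mitochondrial UMIs were kept. Fos was at 1.93, 2.56, 3.87 and 3.53 CPM, and its intervals in libraries 3 (3.59 to 4.18) and 4 (3.26 to 3.82) overlapped. Junb was at 41.1, 28.4, 60.2 and 46.1 CPM, lowest in library 2. Fosb was barely detected, with 20 to 69 counts per library and 0.120, 0.195, 0.191 and 0.396 CPM. Its intervals overlapped between libraries 1, 2 and 3, and library 4 (0.308 to 0.502) stood above them. Atf3 levels were 1.65, 0.859, 5.77 and 5.42 CPM and spanned 6.71-fold (5.70 to 7.94), with overlapping intervals in libraries 3 and 4. Ier2 was nearly level, at 128, 116, 137 and 117 CPM, and only 13.1% of genes had a smaller range than its 1.18-fold (1.16 to 1.20). Libraries 2 and 4 did not differ beyond counting error for Ier2.

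**Figure D1:**
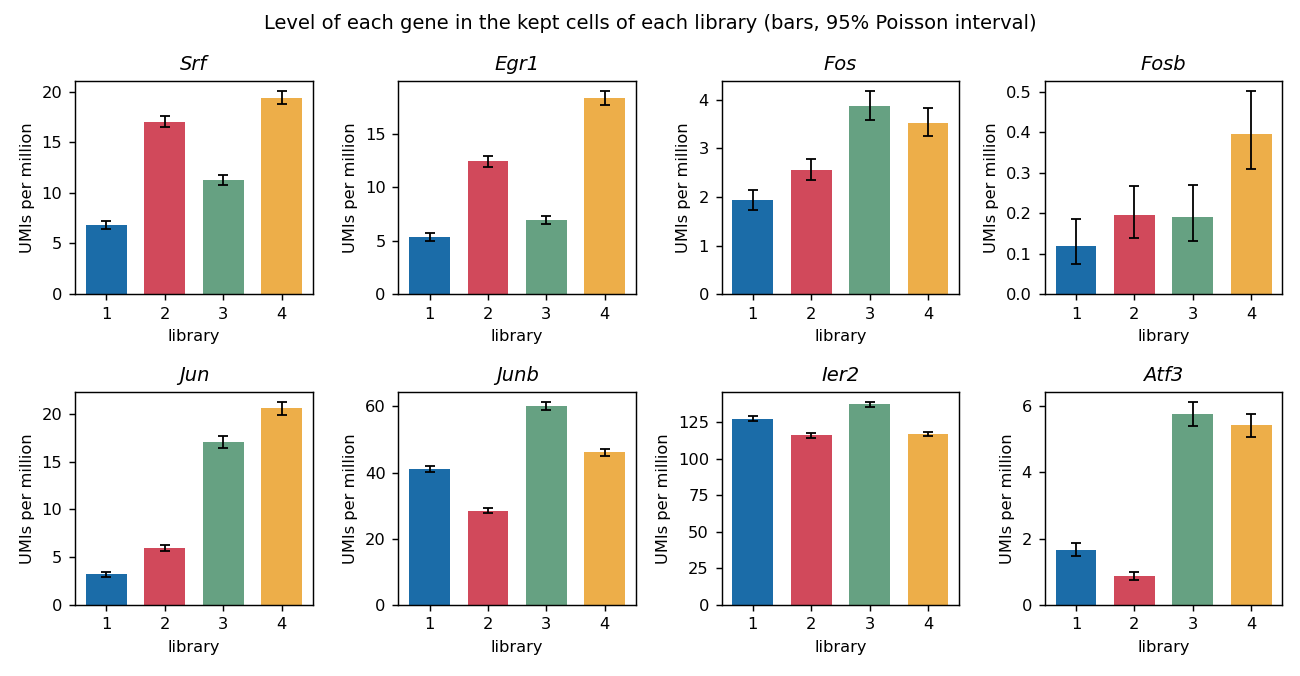
UMIs per 1000000 UMIs of the kept cells (vertical axis, from 0, scaled for each gene) in libraries 1 to 4 (horizontal axis). Bars are 1 library each and whiskers are exact 95% Poisson intervals. Srf and Egr1 were highest in libraries 2 and 4, Jun and Atf3 in libraries 3 and 4, and Ier2 stayed between 116 and 137.

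Of the 7 members with at least 200 counts over the libraries, 6 differed at least 2-fold between their highest and lowest library, where 27.9% of the 14525 genes with that many counts did. The median range was 2.86-fold for these 7 and 1.52-fold for all genes. The list of 38 other immediate early genes was less spread, with 21 of 34 countable genes at 2-fold or more and a median of 2.15-fold. In that list Mcl1, an anti-apoptotic BCL2 relative, and Jund, an AP-1 subunit, had the most counts, and their ranges were 1.27-fold and 1.77-fold. Ccn1, a secreted matrix protein and known SRF and YAP target, ranged 8.34-fold, and Fosl2, another AP-1 subunit, 8.49-fold. Egr4, a relative of Egr1, ranged 23.6-fold (11.2 to 59.5) on few counts. The cofactors of Srf varied less: of 5 countable genes, Elk3, a ternary complex factor, was past 2-fold at 2.67, while Mrtfa ranged 1.78-fold, Mrtfb 1.35-fold, Elk4 1.19-fold and Elk1 1.11-fold. Of the 20 cytoskeletal targets of Srf, 18 were past 2-fold, but Actb, the most counted, ranged 1.249-fold. Since the libraries also differed in which clusters of cells they held, levels were next compared within libraries.

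Cells were clustered without the 8 members and without the 38 other immediate early genes, so that these did not set the clusters. Of the 2000 most variable genes 25 were left out for this reason, 5 of them members (Jun, Atf3, Egr1, Junb and Fos, with Srf, Fosb and Ier2 not among the variable genes). Cluster 1, led by Slc11a1, Catip and Catsperz, held 7649 cells of library 1 and 5783 of library 3. Cluster 2, led by Spic, Gm38414 and Sgo2b, held 6835 cells of library 2 and 168 of library 4. Cluster 3, led by Spon1, Fgf5 and Slc35d3, held 1599 cells of library 2 and 3722 of library 4, and cluster 4, led by Gm45752, Plac8 and Gpx2, held 3438 cells of library 4. Cluster 5, led by Gzme, Ctla2a and Acta2, held 446 cells of library 1, 2066 of library 3 and 79 of library 4. The 6 markers of naive pluripotent cells summed to 964 to 1147 CPM in clusters 1, 2 and 4 and to 127 to 246 CPM in clusters 3 and 5, and the 4 formative markers were highest in cluster 3, at 1461 CPM in library 2 and 1282 in library 4. Within each library every cluster with at least 100 cells was set against the largest one, and a gene was counted when it had at least 50 counts over both and differed at least 1.5-fold.

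Jun and Atf3 separated the clusters most among the members. Cluster 1 of library 1 had Jun at 1.45 CPM (1.26 to 1.65) and cluster 5 at 23.9 CPM (21.3 to 26.7), 16.5-fold apart. For library 3 these were 2.43 and 47.6 CPM, 19.6-fold apart. Jun was also higher in cluster 3 than in cluster 2 of library 2, at 16.8 against 2.64 CPM (6.38-fold). In library 4 it was at 32.2 CPM in cluster 3, 8.65 in cluster 2 and 4.45 in cluster 4. Low-naive clusters therefore carried more Jun in all 4 libraries. Atf3 followed, at 0.754 and 12.7 CPM in clusters 1 and 5 of library 1 (16.9-fold) and at 0.525 and 16.6 CPM in those of library 3 (31.6-fold). It was at 0.195 and 2.91 CPM in clusters 2 and 3 of library 2 (14.9-fold), and library 4 had 9.04 CPM in cluster 3 against 0.207 in cluster 4. Cluster 5 held 7.55% of the UMIs of library 1 but 58.0% of its Atf3 counts and 56.8% of its Jun counts, and in library 3 it held 32.2% of the UMIs, 92.9% of the Atf3 counts and 90.0% of the Jun counts. The levels of both genes were above these in the 79 cells of cluster 5 in library 4, with Jun at 120 CPM (105 to 136) and Atf3 at 51.0 CPM (41.7 to 61.8), a group under the minimum of 100 cells that was added after its values were seen.

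**Figure D2:**
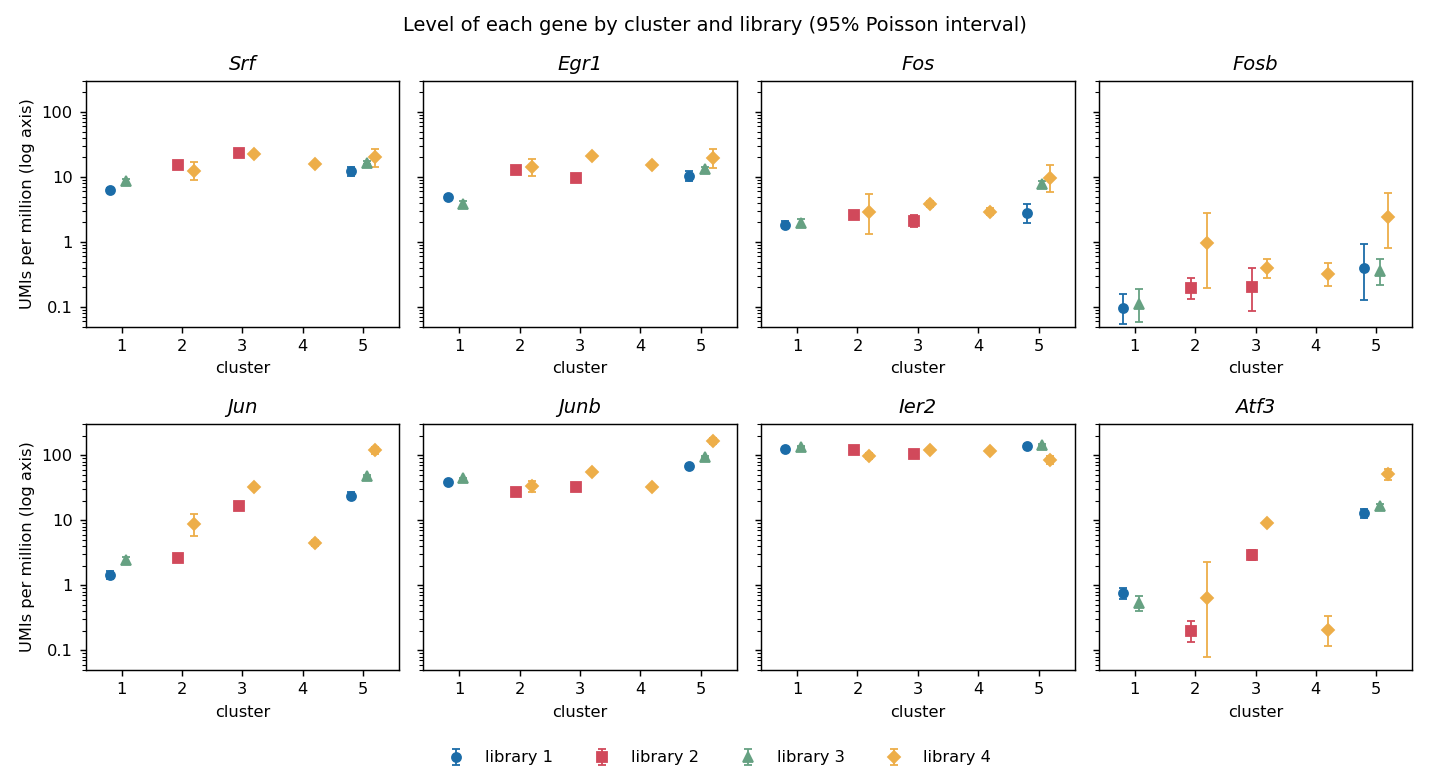
UMIs per 1000000 UMIs (vertical log axis, shared by the panels) of each gene by cluster (horizontal axis). Points are the cells of 1 cluster in 1 library, whiskers are exact 95% Poisson intervals, and the library 4 point in cluster 5 rests on 79 cells. Jun and Atf3 spread over more than a factor of 10 between clusters, and Ier2 lay between 84.8 and 143 throughout.

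Srf moved in the same direction as Jun with much smaller steps. Cells of library 1 had 6.33 CPM of it (5.94 to 6.74) if in cluster 1 and 12.4 CPM (10.5 to 14.5) if in cluster 5, and those of library 3 had 8.62 and 16.7 CPM, which is 1.96-fold and 1.94-fold. Cluster 2 of library 2 had Srf at 15.5 CPM and cluster 3 at 23.3 CPM, 1.499-fold apart and just under the rule. In library 4 it was at 22.5 CPM in cluster 3, 16.1 in cluster 4 and 12.5 in cluster 2. Among groups of at least 100 cells the highest Srf levels were thus those of cluster 3, whereas Jun and Atf3 were highest in cluster 5 of library 3. No library held at least 100 cells of both clusters. The 79 cells of cluster 5 in library 4 had Srf at 20.1 CPM (14.4 to 27.3), an interval that holds the 22.5 CPM of cluster 3 there.

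Egr1 did not keep one direction. In cluster 5 Egr1 was higher than in cluster 1, at 10.5 against 4.93 CPM in library 1 (2.12-fold) and 13.4 against 3.88 CPM in library 3 (3.45-fold). Cluster 3 of library 2 had 9.80 CPM of Egr1 against 13.0 in cluster 2, or 0.751-fold (0.673 to 0.837). In library 4 it was again higher in cluster 3, at 21.2 CPM against 15.2 in cluster 4 and 14.1 in cluster 2. Fos was at 2.78 against 1.85 CPM in clusters 5 and 1 of library 1 (1.5003-fold, 1.02 to 2.14, and 1.47-fold without cells of high UMI count) and at 7.83 against 1.95 CPM in library 3 (4.01-fold, 3.41 to 4.73). Fos differed less in library 2, with 2.11 CPM in cluster 3 against 2.61 in cluster 2, a difference within counting error, and was lower in cluster 4 of library 4 (2.93 CPM) than in cluster 3 (3.87 CPM), at 0.757-fold (0.638 to 0.898). Junb was higher in cluster 5 than in cluster 1 by 1.76-fold in library 1 and 2.12-fold in library 3, and 0.600-fold as high in cluster 4 as in cluster 3 of library 4. Fosb had at least 50 counts only in the comparison of clusters 4 and 3 of library 4 (0.813-fold, 0.468 to 1.39). Ier2 lay between 0.815-fold and 1.10-fold in the 5 comparisons.

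Counted over members with at least 50 counts, 6 of 7 were at least 1.5-fold higher in cluster 5 than in cluster 1 of library 1, where 22.6% of all genes were, and 0 were lower, where 17% of all genes were. In library 3 the count was again 6 of 7 higher (26.8% of all genes) and 0 lower (13%). For cluster 3 against cluster 2 of library 2 it was 2 of 7 higher, Jun and Atf3 (19.7%), and 0 lower (12.5%). In library 4, 5 of 7 were lower in cluster 2 than in cluster 3 (23.7%) and 0 higher (15.4%). Of these calls that of Egr1 (0.666-fold) was lost under 3 alternative clusterings (0.697-fold to 0.759-fold) and that of Junb at a lower resolution (0.779-fold), where the reference was a merged cluster of 7166 cells, and Jun moved from 0.269-fold to 0.510-fold without cells of high UMI count. Also in library 4, 3 of 8 were lower in cluster 4 than in cluster 3, namely Jun, Junb and Atf3 (21.4%), with 0 higher (11.1%). In library 2 Srf lay at the limit of the rule, at 1.499-fold and not called, and passed it under 2 alternative clusterings (1.505-fold and 1.52-fold), which would make the count 3 of 7.

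Most of the other immediate early genes were on the side of Jun in libraries 1 to 3. In cluster 5 of library 1, 21 of 31 were higher (22.6% of all genes) and 3 lower (17%), and in that of library 3, 26 of 33 were higher (26.8%) and 0 lower (13%). In cluster 3 of library 2, 18 of 33 were higher (19.7%) and 1 lower (12.5%). The 3 comparisons had medians of 2.46-fold, 3.69-fold and 1.57-fold beside 1.08-fold, 1.10-fold and 1.07-fold for all genes. In library 4, 17 of 35 were lower in cluster 2 than in cluster 3 (23.7%) but 5 were higher (15.4%), namely Btg1, Btg2, Gadd45g, Tiparp and Plk2. In cluster 4, 20 of 35 were lower than in cluster 3 (21.4%) and 0 higher (11.1%). Ccn1 was at 0.552 and 37.2 CPM in clusters 1 and 5 of library 1 and at 2.497 and 80.5 CPM in those of library 3. Klf6, a zinc finger factor, was 2.40-fold, 2.05-fold and 3.94-fold higher, and Jund 1.90-fold, 1.83-fold and 2.01-fold higher, in the same 3 comparisons. Zfp36l1, an RNA decay factor, was lower in 2 of them, at 0.545-fold in library 1 and 0.652-fold in library 2. Mcl1 stayed between 0.903-fold and 1.21-fold in all 5. A further list held the 5 genes Nab1, Nab2, Sertad1, Id1 and Id3. Of them, 4 were higher in cluster 5 of library 1 (22.6% of all genes), and Id3, a relative of Id1, was lower there at 0.462-fold. All 5 were higher in cluster 5 of library 3 (26.8%). Nab1, a corepressor of Egr proteins, was at 2.09 and 12.9 CPM in clusters 1 and 5 of library 1 (6.15-fold) and 6.16-fold apart in library 3, and Id1, an inhibitor of ternary complex factors, was at 49.3 and 156 CPM in clusters 2 and 3 of library 2. Mrtfa was 1.56-fold and 1.62-fold higher in cluster 5 of libraries 1 and 3, Elk3 was 2.501-fold higher in cluster 5 of library 3 but 0.578-fold as high in cluster 3 as in cluster 2 of library 2, and Elk1 was not past the rule in any comparison. Cytoskeletal targets of Srf were higher in cluster 5 for 18 of 19 genes in library 1 and 20 of 20 in library 3, but Acta2 leads that cluster, and all 20 were among the genes used for clustering.

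Markers of other cells and of stress moved with cluster 5 in different ways. Heat shock and dissociation genes added up to 10033 CPM for cluster 1 and 8089 for cluster 5 of library 1, and to 10696 and 8094 for library 3, a sum made up mostly of Hsp90aa1, a chaperone (6256 and 4429 CPM in clusters 1 and 5 of library 1). Gene by gene, 2 of these 8, the stress-induced chaperones Hspa1a and Hspa1b, were at least 1.5-fold higher in cluster 5 of both libraries (22.6% and 26.8% of all genes) and 1 was lower (17% and 13%), which is near the background, with a median of 1.11-fold in library 1 and 0.972-fold in library 3. The ATF4 stress list summed to 851 and 960 CPM in library 1 and to 566 and 682 CPM in library 3, with 3 of 8 genes higher by the rule in each (22.6% and 26.8% of all genes). The keratins Krt8 and Krt18 together had 5.82 CPM in cluster 1 against 457 in cluster 5 of library 1, and 14.3 against 1428 in library 3. The 4 fibroblast markers together had 0.162 CPM in cluster 1 against 7.70 in cluster 5 of library 1, and 0.241 against 31.5 in library 3, with higher values of Col1a1, Col1a2 and Col3a1 in cluster 5 of both, while Lum had 0 counts there in library 1 and 1 in library 3. The 3 trophectoderm markers summed to 3.25 and 7.26 CPM in cluster 5 of libraries 1 and 3, most of it Gata3 (3.25 and 6.63 CPM), with Cdx2 and Elf5 at 0 counts there in library 1 and at 34 and 1 in library 3. The 4 primitive endoderm markers summed to 0.526 and 0.317 CPM in clusters 1 and 5 of library 1 and to 0.448 and 3.21 CPM in library 3. The 79 cells of cluster 5 in library 4 had more of each of these sums for other cells, at 4016 CPM for the keratins, 102 for fibroblast, 38.2 for trophectoderm and 31.4 for primitive endoderm markers. The median UMI count was 24152 in cluster 5 and 18306 in cluster 1. The part of these cells and of depth in the levels of the members was not tested.

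Libraries that shared a cluster still differed in some members. In cluster 1 Srf was 1.36-fold (1.246 to 1.49) and Jun 1.68-fold (1.40 to 2.01) as high in library 3 as in library 1, whereas Egr1 was 0.788-fold (0.699 to 0.886) and Atf3 0.697-fold (0.503 to 0.958). Fos did not differ beyond counting error there (1.06-fold, 0.883 to 1.26). In cluster 5 Fos was 2.82-fold (2.00 to 4.10) and Jun 1.99-fold higher in library 3, and Egr1 (1.28-fold, 1.06 to 1.55) and Atf3 (1.31-fold, 1.11 to 1.56) were also higher there, opposite to cluster 1. In cluster 3 Srf was level between libraries 2 and 4 (0.968-fold, 0.895 to 1.05), but Egr1 was 2.16-fold, Fos 1.84-fold, Jun 1.91-fold, Junb 1.67-fold and Atf3 3.11-fold (2.56 to 3.81) higher in library 4. The range of Jun between libraries 1 and 3, 5.36-fold over all cells, was thus 1.68-fold in cluster 1 and 1.99-fold in cluster 5. Between libraries 2 and 4, at 3.48-fold over all cells, it was 1.91-fold in cluster 3 but 3.28-fold (2.13 to 4.84) in cluster 2, which held 168 cells and 27 Jun counts in library 4. These are differences between single cultures and have no replicate check.

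To describe the genes cell by cell, each cell was thinned to 5000 UMIs, which left out no kept cell. From library 1 to library 4 a Srf UMI was then seen in 3.36% (2.98% to 3.78%), 8.01%, 5.32% and 8.98% of cells, and in 12.5%, 31.0%, 19.9% and 33.4% without thinning. Egr1 was seen in 2.49%, 5.29%, 2.86% and 7.70% of thinned cells, Fos in 0.998%, 1.12%, 1.79% and 1.67%, and Jun in 1.24%, 2.58%, 5.61% and 7.82%. Junb was seen in 13.1% to 22.6%, Ier2 in 42.7% to 48.4%, Atf3 in 0.364% to 2.28% and Fosb in 4 to 15 cells of a library. The spread over cells was described by the ratio of variance to mean. A count that follows sampling alone has a variance equal to its mean, and for Srf the ratio of variance to mean was 1.01 to 1.05 in the 4 libraries. It was 1.06 to 1.10 for Ier2, 1.09 to 1.33 for Egr1, 1.01 to 1.14 for Fos, 1.11 to 1.32 for Junb, 1.12 to 1.57 for Atf3 and 1.30 to 1.61 for Jun. For the same spread relative to the mean, this ratio lies nearer 1 for a gene with fewer counts. It therefore does not rank members of different levels by their spread. The most UMIs of 1 gene in 1 unthinned cell were 6 for Srf, 16 for Egr1, 11 for Fos, 2 for Fosb, 18 for Atf3, 20 for Ier2, 29 for Jun and 42 for Junb.

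Pairs of members were found together somewhat more often than the product of their shares. For the 11 of 28 pairs with at least 5 cells given by that product in every library, the median ratio was 1.11, 1.09, 1.16 and 1.17 in libraries 1 to 4, beside 0.973, 0.985, 0.829 and 0.886 for 64 pairs of a member with a naive pluripotency gene. Of the 11 pairs, 7 were above 1 in every library, but the interval lay above 1 for only 0, 1, 5 and 6 of them in libraries 1 to 4. Within the largest clusters the medians of pairs with a naive gene were 1.00 in every library, and those of the member pairs 1.06, 1.06, 1.09 and 1.21. Of the 11 pairs, Jun with Junb had the highest ratio in libraries 2 to 4, at 1.22 (0.765 to 1.85), 1.53 (1.11 to 2.05), 1.78 (1.53 to 2.06) and 1.61 (1.38 to 1.86) in libraries 1 to 4. Egr1 with Junb followed, at 1.248, 1.22, 1.73 (1.38 to 2.13) and 1.54 (1.32 to 1.79). Some pairs too rare for the 11 had higher ratios. Egr1 with Jun was at 2.29 (1.53 to 3.28) in library 3 and 1.89 (1.51 to 2.34) in library 4. In libraries 1 and 2 it was at 1.19 and 1.03, with 1 inside each interval. Srf with Egr1 was at 1.32, 1.22, 1.16 and 1.14, with 1 inside the interval in every library. Jun with Ier2 was at 0.915, 0.860, 0.960 and 1.17.

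**Figure D3:**
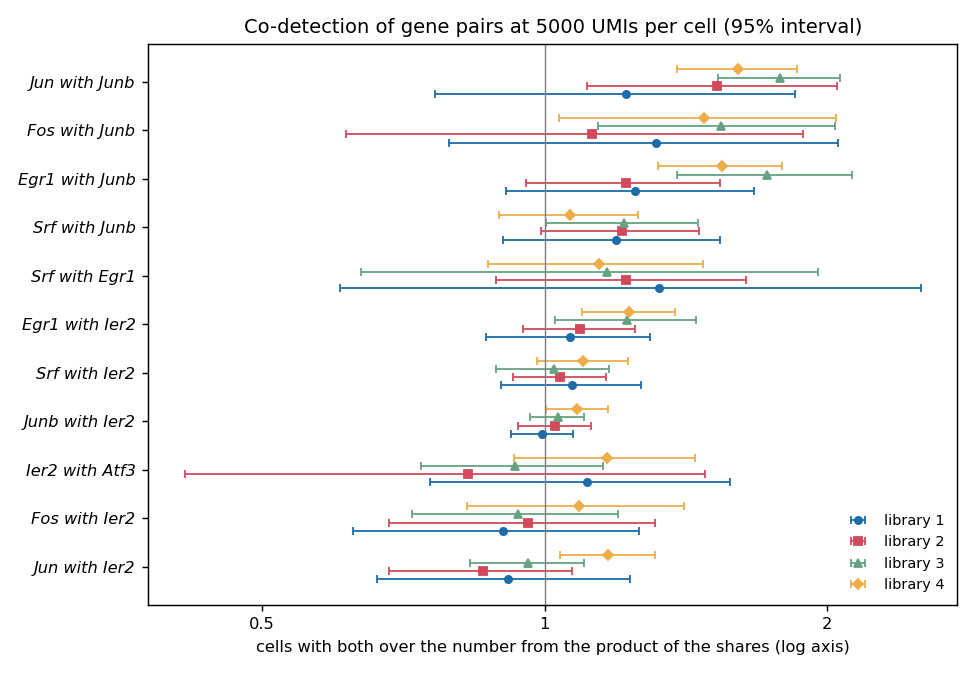
Number of cells with a UMI of both genes over the number given by the product of the shares (horizontal log axis) for the 11 pairs of members with enough cells (vertical axis), in cells thinned to 5000 UMIs. Points are libraries and whiskers are exact 95% Poisson intervals of the count. Jun with Junb lay highest in libraries 2 to 4 and Srf with Egr1 in library 1, and the 6 pairs with Ier2 lay between 0.829 and 1.23.

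Pairs were also counted within the largest cluster of each library. Jun with Junb was there at 0.811, 0.697 and 1.24 in libraries 1 to 3, with 1 inside each interval, and at 1.40 (1.19 to 1.64) in library 4, whose largest cluster is the Jun-rich cluster 3. Egr1 with Junb was at 1.29, 1.16, 1.57 and 1.71 there. Jun with Atf3 was too rare in libraries 1 and 2 for the list above. In libraries 1 to 4 it was found in 5, 7, 49 and 60 cells, where the product gave 0.746, 0.801, 10.1 and 13.1. Inside the largest cluster the pair was too rare to compare in library 3, with 0 cells where the product gave 0.184, and was found in 53 cells of library 4, where it gave 19.0. Cells with UMIs of 4 or more members numbered 7, 14, 52 and 83, or 0.0862%, 0.164%, 0.659% and 1.11% of a library, where the products of the shares gave 0.0256%, 0.0657%, 0.146% and 0.294%. In library 3, 50 of the 52 were in cluster 5, and in library 4, 72 of the 83 were in cluster 3. Within these clusters the shares and products were 2.42% and 1.17% in cluster 5 of library 3, and 1.93% and 0.607% in cluster 3 of library 4.

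Cells with a UMI of Srf, Egr1 or Fos were then compared with the cells without one. The class was set on the 5000 drawn UMIs, and levels were read from the UMIs that were not drawn, so that the splitting gene could be measured as well. Srf itself was only 1.28-fold (0.893 to 1.78), 1.28-fold (1.12 to 1.45), 1.44-fold (1.19 to 1.73) and 1.249-fold (1.10 to 1.41) higher in the cells with a Srf UMI. In library 4 that was 23.7 against 19.0 CPM. Egr1 was 5.45-fold, 5.84-fold, 8.23-fold and 5.21-fold higher in the cells with an Egr1 UMI, at 26.4 against 4.84 CPM in library 1 and 72.7 against 14.0 CPM in library 4. Fos was 7.76-fold, 11.7-fold, 9.46-fold and 5.03-fold higher in the cells with a Fos UMI. Within the largest clusters the folds were 1.16 to 1.28 for Srf, 4.86 to 6.13 for Egr1 and 4.66 to 9.62 for Fos. Finding an Egr1 or Fos transcript thus went with several times more of the same transcript in the rest of the cell, in every library. Finding a Srf transcript went with little more, and in library 1 the interval (0.893 to 1.78) held 1.

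**Figure D4:**
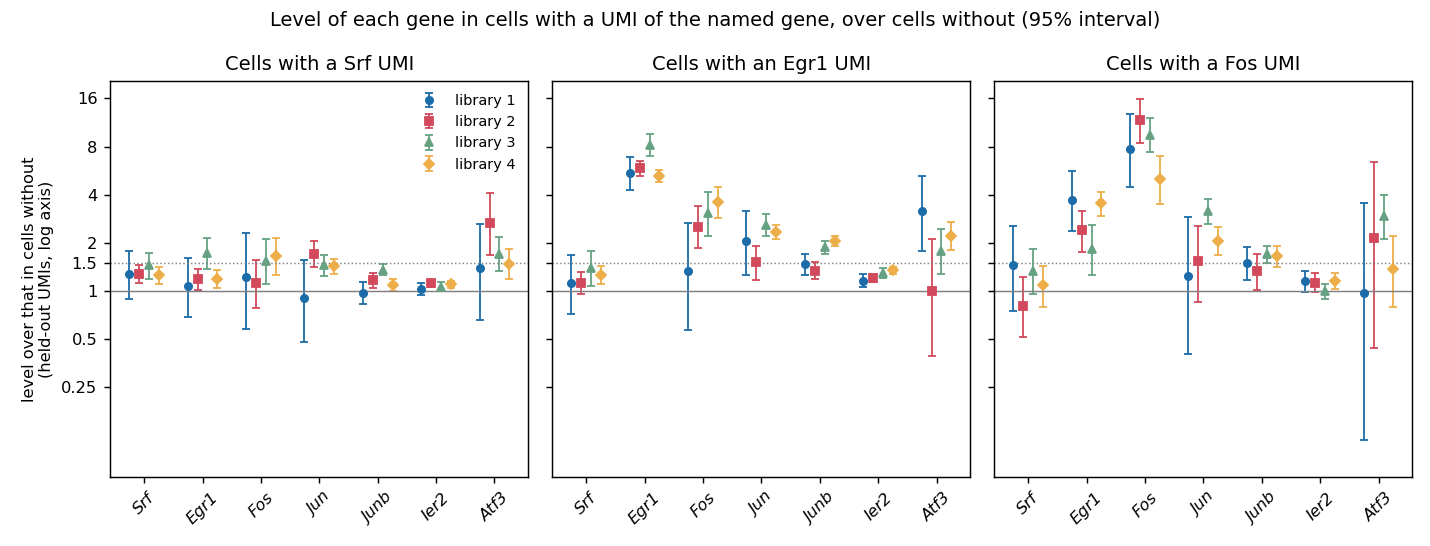
Level of each member in the cells with a UMI of Srf (left), Egr1 (middle) or Fos (right) over its level in the cells without, from the UMIs not used to set the class (vertical log axis). Points are libraries, whiskers are exact 95% intervals, the full line marks 1 and the dotted line 1.5. Egr1 and Fos stood 5.03-fold to 11.7-fold higher in the cells that carried them, and Srf 1.249-fold to 1.44-fold; Fosb is left out for its few counts.

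Cells with an Egr1 UMI differed in some of the immediate early transcripts. These cells were also described by cluster and by their sums of S, G2/M and naive genes. In library 3, 46.9% of them were in the largest cluster against 74.0% of the others, and in libraries 1, 2 and 4 the shares were 91.1% against 94.3%, 86.4% against 79.9% and 57.2% against 49.3%. Their G2/M sum was 0.906-fold, 0.932-fold, 0.801-fold and 0.920-fold in libraries 1 to 4, with each interval below 1. Their S sum was 1.06-fold, 1.04-fold, 1.06-fold and 1.02-fold, with each interval above 1. Their naive sum was 0.992-fold, 1.11-fold, 0.718-fold and 0.918-fold. The intervals of these sums cover counting error only, not the spread between cells. A fold such as 1.02 is therefore not shown to be a difference. The part of the clusters and of these sums in the values that follow was not tested. Of 29 countable genes of the other immediate early list 10 were above 1 in every library, where 8.57% of all genes were, and the list's sum in library 2 was 1.01-fold (0.986 to 1.04). Of the members, Jun was 2.05-fold, 1.503-fold, 2.58-fold and 2.33-fold higher in libraries 1 to 4. Junb was 1.46-fold, 1.34-fold, 1.87-fold and 2.04-fold higher, and Ier2 1.15-fold, 1.21-fold, 1.29-fold and 1.34-fold. Fos was 1.33-fold (0.569 to 2.67), 2.52-fold, 3.05-fold and 3.59-fold. Srf was 1.12-fold, 1.12-fold, 1.39-fold and 1.26-fold, with 1 inside the interval in libraries 1 and 2. By the rule of at least 1.5-fold in every library with at least 200 counts, 3 of 10679 genes were higher (0.0281%), and all 3 were immediate early genes: Jun, Ccn1 (3.69-fold, 1.86-fold, 1.94-fold and 2.14-fold) and Zfp36, an RNA decay factor (1.56-fold, 1.52-fold, 2.07-fold and 1.91-fold). Lower were Rhox6 and Tcp11 (0.0187%). The largest cluster of each library alone gave 0 higher and 0 lower genes. Jun was there at 1.77-fold (1.18 to 2.57) in library 2 and 2.21-fold (1.98 to 2.46) in library 4. On 4 counts or fewer it was at 1.01-fold (0.271 to 2.63) in library 1 and 0.289-fold (0.00729 to 1.63) in library 3. Junb was at 1.246-fold, 1.29-fold, 1.31-fold and 2.07-fold. Leaving out library 2 gave 15 higher and 7 lower genes, and leaving out library 1 gave 4 and 7.

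Cells with a Fos UMI, 81 to 141 per library, carried more Egr1, by 3.72-fold, 2.38-fold, 1.83-fold and 3.52-fold. Their G2/M sum was 0.923-fold, 0.970-fold, 0.843-fold and 0.944-fold in libraries 1 to 4, with each interval below 1. Their naive sum was 0.890-fold, 0.976-fold, 0.683-fold and 0.883-fold. The intervals of these sums cover counting error only, not the spread between these few cells. A fold such as 0.970 is therefore not shown to be a difference. The part of these sums in the values given here was not tested. Of 10679 genes 27 were higher in every library (0.253%) and 8 lower (0.0749%). Egr1 was the member among them, a call that was lost with the class set at 2500 UMIs, where 14 of the 27 genes remained among 47. Also higher were Plk2 and Ccn1 of the other immediate early genes, Cald1 and Tagln of the cytoskeletal targets of Srf, and, leading by their smallest fold together with Cald1, Anxa1 (6.74-fold, 4.08-fold, 4.69-fold and 3.43-fold), Wnt4, Cryab and Perp. The 5 leading lower genes, Gm13663, Gm12184, Gm11457, Cdk20 and Zfp446, rested on few counts in the cells with a Fos UMI. In library 3 only 44.7% of these cells were in its largest cluster, against 73.8% of the others. Within the largest clusters 2 genes were higher and 4 lower. Only 1 of the 27 was still higher there, Egr1, at 3.13-fold, 2.68-fold, 2.83-fold and 3.25-fold, with each interval above 1. The other genes named here were not called there. Leaving out 1 library gave 58 higher and 22 lower genes without library 1, 82 and 22 without library 2, 34 and 17 without library 3 and 73 and 37 without library 4.

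Cells with a Srf UMI were only slightly richer in Srf itself, at 1.249-fold to 1.44-fold on the UMIs not drawn, so that the splitting gene did not pass the rule of 1.5-fold and a low count of genes says little. By that rule 0 of 10679 genes were higher (0%) and 0 lower (0%), and 6 were higher under a lower minimum fold. Leaving out library 1 gave 2 higher genes and leaving out library 4 gave 7. Of 5 countable members 3 were above 1 in every library, where 16.6% of all genes were. They were Egr1 (1.07-fold, 1.19-fold, 1.71-fold and 1.19-fold), Fos (1.22-fold, 1.11-fold, 1.54-fold and 1.65-fold) and Ier2 (1.02-fold, 1.11-fold, 1.06-fold and 1.10-fold). Jun was at 0.903-fold, 1.71-fold, 1.44-fold and 1.42-fold. The interval of Egr1 in library 1 (0.688 to 1.60) held 1, as did those of Fos in libraries 1 and 2 and of Ier2 in libraries 1 and 3. Within the largest clusters Egr1 was at 0.886-fold, 1.06-fold, 0.578-fold and 1.11-fold, with 1 inside each interval. Ier2 was there at 1.00-fold, 1.13-fold, 0.918-fold and 1.09-fold. Fos was there at 0.981-fold, 0.974-fold, 0.798-fold and 1.51-fold (1.06 to 2.09). Of 16 countable cytoskeletal targets of Srf, 14 were above 1 in every library, where 16.6% of all genes were, with a median of 1.24-fold beside 1.01-fold for all genes. Their sum was at 4429 against 3967 CPM in library 1 (1.12-fold), 1.10-fold in library 2, 1.31-fold in library 3 and 1.08-fold in library 4. Cells with a Srf UMI were in the largest cluster less often in libraries 2 (72.0% against 81.0%) and 3 (60.0% against 74.0%) and more often in library 4 (56.7% against 49.2%), and the part of the clusters in these sums was not tested. The naive list had 0 of 10 genes above 1 in every library, with sums of 0.953-fold, 0.885-fold, 0.816-fold and 0.897-fold. Median UMI counts were somewhat higher in the cells with a Srf UMI. They were 18964 against 18367, 22277.5 against 21862, 20890 against 19327 and 21775 against 21404 in libraries 1 to 4.

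The genes most like each member over single cells were ranked by the smallest of the 4 within-library Pearson correlations of log-normalised values among 9940 genes with at least 0.05 UMIs per cell. Cells share their library, depth and free RNA, so the values serve as a description, and those of Srf, Egr1 and Fos are weak. For Srf the nearest were Tpm1 (0.0811, 0.129, 0.147 and 0.1303 in libraries 1 to 4), Pdlim7, Ccn1, Cnn2 and Actb, of which Tpm1, Cnn2 and Actb are on the list of cytoskeletal targets. For Egr1 they were Ccn1 (0.0895, 0.0724, 0.117 and 0.134), Epha2, Tagln, Phlda1 and Amotl2. For Fos they were Plk2 (0.0750, 0.0570, 0.203 and 0.0571), Btg2, Tagln, Ccn1 and Perp. Among members the values of Egr1 with Fos were 0.0569, 0.135, 0.1296 and 0.192 and ranked 16, 1, 12 and 2 among all genes for Egr1, and Egr1 with Junb ranked 9, 1, 2 and 1. With members let in, Junb (smallest value 0.0649) would stand before Epha2 (0.0503) for Egr1. For Fos, Egr1 (0.0569) would stand before Btg2 (0.0561). Egr1 with Srf, at 0.0181 to 0.0668, ranked 1134, 175, 251 and 476. Jun was nearest to Krt8 (0.324 to 0.519) and Atf3 to Tagln (0.342 to 0.415), and inside the largest clusters of libraries 1 to 3 these values lay between -0.0125 and 0.0403, while in library 4 they stayed at 0.286 and 0.379. Egr1 with Ccn1 was likewise at -0.000687, 0.0390 and 0.00982 inside those of libraries 1 to 3 and at 0.192 in library 4, and Fos with Ccn1 at -0.0149, -0.00717, 0.0244 and 0.1204.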

How the data were processed

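Gene by cell counts of UMIs were deposited as 1 matrix of 41142 barcodes; the submitters' notes name Cell Ranger 6.1.2 and mm10, and by the study's methods the authors joined the libraries with cellranger aggr, whose default evens out mean read depth between libraries by subsampling. Cells were kept, after the study's methods, with UMIs and genes no more than 1 SD under the library mean and at most 10% mitochondrial UMIs. Doublets were not called, and 1615 cells above 2 times their library's median UMIs were left out as an alternative. Cells were clustered from 1975 variable genes (20 components, 20 neighbours, leidenalg 0.10.2, resolution 0.2) with Python 3.11.15, numpy 2.4.6, scipy 1.17.1, pandas 2.3.3 and R 4.3.3. The comparison of cell classes was tried on simulated data with the true class given. Setting the class by a UMI was not simulated. Named were the 8 members, the 2 most counted genes of a list where used, genes past a rule of size, the 5 leading called or most alike genes and 3 leading genes per cluster; other list genes (Elk4, Mrtfa, Elk3, Egr4, Klf6, Zfp36l1, Nab1) were chosen after their values were seen. Members and lists were chosen with earlier results of these data known. No column of the authors' own comparisons was used.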

Additional observations from a re-analysis of the deposited data

How the results depend on the processing

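No paired analysis was possible because the library numbers are not tied to samples; for the same reason the planned edgeR and DESeq2 comparisons of genotype could not be run. The count of members at least 2-fold apart between libraries was 6, and 5 to 7 under 6 alternatives; Fos fell under 2-fold with median-of-ratios scaling, which moved libraries by -0.13 to 0.09 on the log2 scale, with means over cells and without cells of high UMI count. Member calls between clusters were 22, and 17 to 22 under 5 alternatives, 18 being at resolution 0.1 and 17 with components centred by library, each with 1 comparison fewer since clusters 4 and 3, or 2 and 4, of library 4 were not separate; in library 4, cluster 2 against 3, single calls were lost as given above (1 of Srf in library 2 was gained), Fos went from 0.745-fold, not called, to 1.04-fold with cytoskeletal targets left out, and Atf3 went from 0.0709-fold to 0.134-fold at resolution 0.1, against the merged cluster. Atf3 in cluster 3 of library 2 moved from 14.9-fold to 9.48-fold with centred components, and the library range of Fosb from 3.31-fold to 1.92-fold at 5% mitochondrial UMIs. Counts of genes higher with a UMI of Srf, Egr1 and Fos, at 0, 3 and 27, were 2, 5 and 47 with the class set at 2500 UMIs, and 6, 9 and 114 under a lower minimum fold. With a minimum of 50 counts they were 1 for Srf and 78 for Fos, and with one of 2000, chosen after seeing the data, 0 for Egr1 and 3 for Fos. Within the largest clusters they were 0 for Egr1 and 2 for Fos. Leaving out 1 library gave 0 to 7, 3 to 15 and 34 to 82. Pairs of members above 1 in every library were 7 of 11, and 3 of 7 at 2500 UMIs, 21 of 23 without thinning and 3 of 9 within the largest clusters. The causes were not tested. Of single-member values, 12 of the library folds and 9 of the cluster folds moved, and 36 and 156 did not; 20 counts of lower genes moved and 10 did not. At 2500 UMIs the median pair ratio in library 3 went from 1.16 to 0.9904. No called direction was reversed. Depth limits Fosb and pairs of rare members, and with 1 culture per library no difference has a replicate check.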
